A study of Mus musculus with 46 samples.

Results

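Hhex and 7 other transcription factors of blood stem and progenitor cells, Nfe2, Erg, Gfi1b, Meis1, Gata1, Gata2 and Mycn, were followed through T-cell development with and without an LMO2 transgene. They were taken by gene symbol and made up 8 of the 19521 genes in the deposited table, where their identifiers were 15242 (Hhex), 18022 (Nfe2), 13876 (Erg), 14582 (Gfi1b), 17268 (Meis1), 14460 (Gata1), 14461 (Gata2) and 18109 (Mycn). RNA was sequenced from sorted cells of C57BL/6 mice, either wild type (WT) or of the genotype labelled hCD2-LMO2 knock-in (transgenic, TG). The thymic groups were DN1 (1 WT and 3 TG libraries), DN3, total DN, DP, CD4SP and CD8SP (3 WT and 3 TG libraries each), and the splenic groups were TG CD4+ and TG CD8+ T cells (3 libraries each), 40 libraries in 14 groups. By textbook usage DN cells lack CD4 and CD8, DP cells carry both, SP cells carry 1 of them, DN1 is the earliest and DN3 a later DN stage. In the TG mice the name hCD2 points to elements of the human CD2 gene, which is active in T cells. The age of the mice, and whether the transgene carries the mouse or the human LMO2 sequence, were not given in the sources used here. There was no WT spleen among the RNA libraries, and the labels do not say that libraries of a group came from separate animals. The p-values therefore measure the spread between these libraries, which may be technical.

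LMO2 is a LIM-domain protein that does not bind DNA itself but bridges DNA-binding partners, among them the basic helix-loop-helix proteins TAL1 and LYL1 with E proteins, and GATA factors, through LDB1. With ERG, FLI1, RUNX1, GATA2, TAL1 and LYL1 it belongs to a set of regulators often called the heptad, which together occupy regulatory regions in blood stem and progenitor cells. HHEX is a homeobox factor of early blood progenitors and B cells, is normally shut down as thymocytes commit to the T lineage, and is known from mouse models of LMO2-driven T-cell leukaemia. MEIS1 is a homeobox cofactor of HOX proteins. ERG is an ETS factor needed for stem cell maintenance and also active in early thymocytes. NFE2 is a basic leucine zipper factor of the megakaryocyte and erythroid lineages, GATA1 drives erythroid, megakaryocyte and mast cell genes, and GATA2 acts in stem cells and mast cells. GFI1B is a zinc-finger repressor of the erythroid and megakaryocyte lineages, and MYCN is a MYC family protein present in stem cells and early thymocytes.

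Promoters are shown for Hhex, Erg and Gata1, because these genes rose together in TG DN3 and TG total DN cells and because LMO2 complexes are known to bind E-box and GATA motifs. The sequences are RefSeq's on GRCm38.p6 and give the 250 bases before the start on the gene's own strand, 5′ to 3′. Capitals mark CANNTG (the E-box, the same on both strands) and GATA, which reads TATC where it lies on the other strand.
Hhex, chr19:37434591-37434840, plus strand: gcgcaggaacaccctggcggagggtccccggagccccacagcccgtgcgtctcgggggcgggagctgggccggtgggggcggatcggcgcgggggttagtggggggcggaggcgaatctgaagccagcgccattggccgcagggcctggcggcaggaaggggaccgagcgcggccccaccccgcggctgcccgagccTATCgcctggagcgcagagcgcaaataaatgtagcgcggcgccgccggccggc
Erg, the start of 3 listed that holds both motifs, chr16:95459349-95459598, minus strand: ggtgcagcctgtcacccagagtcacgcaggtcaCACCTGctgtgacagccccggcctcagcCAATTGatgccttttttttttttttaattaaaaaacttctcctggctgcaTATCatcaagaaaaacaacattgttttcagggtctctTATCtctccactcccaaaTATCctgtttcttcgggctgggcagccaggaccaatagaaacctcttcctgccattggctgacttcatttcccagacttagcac
Gata1, chrX:7967911-7968160, minus strand: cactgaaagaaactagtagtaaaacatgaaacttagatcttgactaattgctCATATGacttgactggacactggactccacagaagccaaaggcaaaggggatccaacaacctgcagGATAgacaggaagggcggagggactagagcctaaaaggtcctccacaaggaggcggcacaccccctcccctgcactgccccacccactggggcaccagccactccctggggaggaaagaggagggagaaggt
The Hhex promoter held 0 CANNTG and 1 GATA, the Erg promoter shown 2 and 3, and the Gata1 promoter 1 and 1. Of the Erg starts not shown, one held 0 CANNTG and 0 GATA and the other 0 CANNTG and 1 GATA. Of the 8 genes, 7 were in the promoter table, with 10 starts in all; Nfe2 was not matched. Of 32851 mouse promoters of 300 bases (250 before to 50 after the start), 72.3% held CANNTG and 57.9% held GATA on either strand. CANNTG followed by GATA on the same strand after 8 to 10 bases, the spacing known for LMO2 complexes, was found in 1.63% of all promoters and in 0 of the 10 windows of these genes. These are matches of letters in short windows and say nothing of binding there or elsewhere.

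Libraries held 17211426 to 28842773 counted reads, and levels are given as CPM, reads scaled to a common library size, with library sizes set by TMM over the 40 libraries. Lmo2 was 0.211 to 0.287 CPM in WT DN3 cells against 19.1 to 25.4 in TG DN3 cells, and 31.7 in the WT DN1 library against 36.4 to 45.1 in TG DN1. It was 0.395 CPM in the library labelled transgenic DP replicate 3, at the WT DP level (0.119 to 0.473), against 78.8 and 70.0 in TG DP replicates 1 and 2. That library therefore goes against its label, and DP results are given with and without it. Of 40 libraries 12, 10 TG and 2 WT, carry an N at the end of their column name, a mark the labels do not explain. The RNA is that of whole sorted fractions, so more cells of a type and more RNA per cell cannot be told apart.

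In DN3 cells Hhex, Nfe2 and Erg rose most among the 6 of the 8 genes with enough reads to be tested. Hhex was 0.860, 0.654 and 1.79 CPM in WT replicates 1 to 3 and 114, 109 and 153 in TG replicates 1 to 3. All TG libraries lay far above all WT libraries, a difference of 6.82 ± 0.32 (SE) on the log2 scale or 113-fold, with an adjusted p of 6.67e-06. Adjusted p-values throughout come from edgeR (quasi-likelihood test, adjusted by Benjamini and Hochberg's method over all genes tested), a gene is called at under 0.05, and errors of log2 differences are SE. Among all 12037 genes tested in DN3, 45.7% were called and 23.4% were called higher and 22.2% lower. TG libraries were all above the WT libraries in 28.5% of genes and all below in 29.1%, so that a call or a lack of overlap was common here. Of the 8 genes, 6 passed the filter on low counts and 4 were called, all higher.

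Nfe2 was already present in normal DN3 cells, at 21.8, 13.9 and 23.5 CPM, and stood at 205, 131 and 214 in TG DN3 cells. The groups did not overlap, and the log2 difference was 3.22 ± 0.25 (edgeR adjusted p = 6.62e-05). Erg, a member of the heptad, was 24.3, 25.5 and 28.7 CPM in WT and 115, 82.9 and 142 in TG libraries, again without overlap. Its log2 difference was 2.12 ± 0.19 (edgeR adjusted p = 6.93e-05). Hhex thus went up from about 1 CPM, whereas Nfe2 and Erg went up from a level of over 10 CPM. All 3 genes stayed called when each of the 6 libraries was left out in turn. In a fit of all 40 libraries together, 17.8% of genes were called. There Hhex stayed called, and the edgeR adjusted p was 0.0914 for Nfe2 and 0.217 for Erg.

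The GATA factors stayed low in DN3. Gata1 was 3.12, 2.11 and 3.10 CPM in WT and 5.27, 5.10 and 3.66 in TG DN3 libraries, and the groups were close but did not overlap. Its log2 difference was 0.75 ± 0.26 (edgeR adjusted p = 0.0394). That call was lost when any library but TG replicate 3 was left out, with adjusted p-values of 0.0724 (without WT 1), 0.0942 (WT 2), 0.0843 (WT 3), 0.109 (TG 1) and 0.0948 (TG 2). Gata2 had 0 reads in all 3 WT DN3 libraries and 1, 10 and 3 reads in TG replicates 1 to 3, and did not pass the filter. Taken as 14 reads against a limit of 3 for the WT group, the TG level was at least 4.54-fold higher. Here and in the later bounds of this kind, the reads of the higher group are taken as exact. Such a bound covers only the counting error of the group at 0.

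Among the remaining genes, Gfi1b was 1.58, 1.71 and 1.34 CPM in WT and 1.51, 3.65 and 4.23 in TG DN3 cells. TG replicate 1 lay within the WT range and the other 2 TG libraries above it, with a log2 difference of 1.02 ± 0.39 and an edgeR adjusted p of 0.0577. Without TG replicate 1 the difference was 1.35 ± 0.27 and the edgeR adjusted p was 0.00674. Mycn was the one tested gene of the 8 that was lower in TG DN3 cells, at 15.4, 13.2 and 13.7 CPM in WT and 12.3, 7.24 and 9.26 in TG libraries. The groups did not overlap, the log2 difference was -0.55 ± 0.20, and the edgeR adjusted p of 0.0516 missed the threshold. Without TG replicate 1 it was 0.0171, by the same edgeR test. TG replicate 1 was the TG library nearest to WT in both Gfi1b and Mycn. Their p-values without it show only how much each result rests on that library. Meis1 had 0 reads in all 3 TG DN3 libraries and 6, 3 and 5 reads in the WT libraries, and did not pass the filter. A limit of 3 reads for the TG group makes the WT level at least 4.79-fold higher, with only the counting error of the TG group covered.

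**Figure D1:**
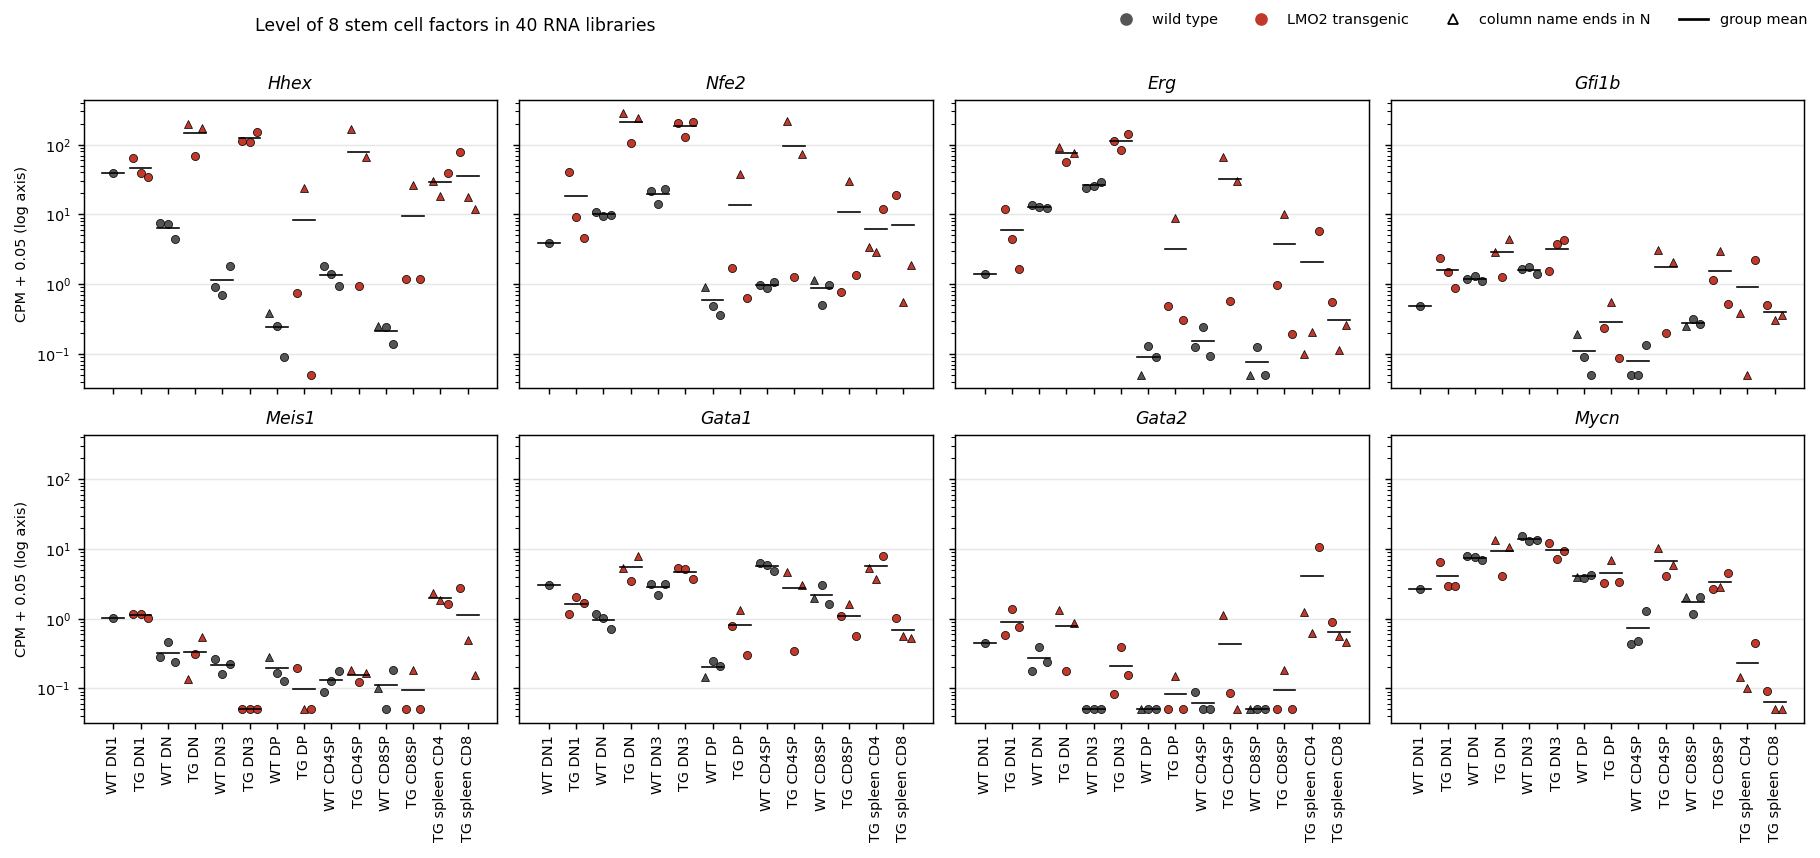
Level of each of the 8 genes in each of the 40 libraries, as CPM + 0.05 on a log axis, by group. Points are libraries (grey WT, red TG, triangles for columns whose names end in N) and bars are group means. Hhex, Nfe2 and Erg stand above WT in all 3 TG DN3 and all 3 TG total DN libraries, and are spread over a wide range in TG DP, CD4SP and CD8SP.

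Between genes, levels were compared per transcript length with the authors' FPKM values. In TG DN3 cells Nfe2 had the highest FPKM of the 8 genes at 122 ± 30.4 (SD, n = 3), then Hhex at 79.1 ± 15.4 and Erg at 40.4 ± 10.4. The next gene, Mycn, was at 4.01 ± 1.06 FPKM, followed by Gata1 at 2.70 ± 0.492 and Gfi1b at 1.98 ± 0.915. In WT DN3 cells the order was Nfe2 at 14.4 ± 3.84 FPKM, Erg at 9.79 ± 0.905, Mycn at 6.42 ± 0.487 and Gata1 at 1.73 ± 0.366, with Hhex at 0.757 ± 0.424. Hhex thus moved from below Mycn and Gata1 in WT to far above both in TG DN3 cells.

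Markers of other cell types were measured beside these genes in the DN3 libraries. The 7 B-cell markers summed to 9.49 to 14.1 CPM in TG and 24.8 to 35.1 in WT DN3, with Cd79a at 0.448 to 0.788 in TG. The 9 myeloid markers summed to 2.51 to 3.76 CPM in TG and 8.56 to 11.2 in WT, with 4 of 9 having reads in each TG library. The 10 erythroid genes summed to 198 to 229 CPM in TG and 111 to 129 in WT. Zfpm1 made 149.8 to 171 CPM of that sum in TG and 52.9 to 58.6 in WT, and the globin gene Hba-a1 was 10.2 to 26.95 in TG and 22.6 to 33.9 in WT. The 11 megakaryocyte genes summed to 37.5 to 77.7 CPM in TG and 10.1 to 13.96 in WT, nearly all of it Itgb3 (35.7 to 74.5 and 8.10 to 11.9), and the platelet gene Pf4 was at 0 in all 6 libraries. Il2ra, which encodes the CD25 used to mark DN3 cells, was 1028 to 1203 CPM in WT and 1384 to 1417 in TG. The 10 mast cell and basophil genes summed to 698 to 1062 CPM in TG and 139.9 to 190.2 in WT, with Cpa3 at 505 to 852 and 29.03 to 72.3. Of these 10 genes, which include the T-cell factor Gata3, only 3 to 5 had reads in a TG library and 4 in each WT library. The B-cell and myeloid sums were thus lower in TG than in WT DN3 libraries, and the erythroid, megakaryocyte and mast cell sums were higher. The part of such cells in the rise of Hhex, Nfe2 and Erg was not tested.

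The other genes of the LMO2 complex and of stem cells moved unevenly in DN3. Of 13 heptad and LMO2 complex partners, 11 were tested, 8 rose and 3 fell, where 23.4% of all genes tested rose and 22.2% fell, with a median log2 difference of 0.72 against -0.03 over all genes tested. Lyl1, whose product is a known LMO2 partner, changed by about as much as Hhex, from 0.323, 0.654 and 2.36 CPM in WT to 88.1, 103 and 164 in TG (log2 difference 6.72 ± 0.60, edgeR adjusted p = 0.000212). The other 3 partners with the smallest p rose by less, Fli1, the ETS factor of the heptad, by 0.72 ± 0.10, the corepressor Cbfa2t3 by 0.89 ± 0.13, and the E protein Tcf12 by 1.05 ± 0.15. Tal1, the helix-loop-helix factor related to Lyl1, was at 0.0359 to 0.514 CPM in TG and 0.145 to 0.563 in WT DN3 and was not tested.

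Of 20 further stem and progenitor factors, 17 were tested, 2 rose and 9 fell, against the same shares of all genes (23.4% and 22.2%), with a median log2 difference of -1.60. Those with the smallest p included Bcl11a, which encodes a zinc-finger protein of lymphoid progenitors and was 12.5 to 16.8 CPM in WT and 0.0342 to 0.108 in TG. Hoxa7, a homeobox gene, was 6.81 to 8.07 CPM in WT and 0 to 0.103 in TG, and Mef2c, a MADS-box factor of early lymphoid cells, was 3.27 to 3.91 and 0.0342 to 0.172. These 3 fell. Etv6, an ETS repressor, was among the 2 that rose, at 125 to 141 CPM in WT and 336 to 389 in TG. Hhex, Nfe2 and Erg were thus higher in libraries where Hoxa7, Mef2c and Bcl11a were under 1 CPM.

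Surface receptors and lineage genes of these lineages gave a mixed count in DN3. Of 9 stem and progenitor receptors, 4 were tested, 2 rose and 1 fell, beside 23.4% and 22.2% of all genes. Kit, the stem cell factor receptor, rose, at 42.2 to 51.8 CPM in WT and 209 to 356 in TG. Slamf1, a stem cell surface receptor, also rose, at 3.13 to 5.10 CPM in WT and 15.5 to 21.4 in TG, and Ly6a, the Sca-1 gene, fell, at 8.47 to 15.2 and 3.23 to 5.68. Of 10 erythroid genes measured, 6 were tested and 1 rose, Zfpm1, which encodes the GATA1 cofactor FOG1, by 1.51 ± 0.10. Of 11 megakaryocyte genes 3 were tested and 1 rose, the integrin gene Itgb3, by 2.39 ± 0.28. Of 10 mast cell and basophil genes 4 were tested and 3 rose, Cpa3, a mast cell protease, by 3.85 ± 0.40, the T-cell and mast cell factor Gata3 by 0.85 ± 0.10, and the histamine enzyme gene Hdc by 2.74 ± 0.56. Hdc stayed under 1 CPM in every DN3 library. The mast cell factor Mitf fell, at 0.950 to 1.45 CPM in WT and 0 to 0.137 in TG. In total DN cells 3 of 12 tested partners rose and 0 fell, and 2 of 17 other stem and progenitor factors rose and 3 fell, where 7.47% of all genes rose and 4.89% fell. In CD4SP cells 5 of 11 partners rose and 1 fell, and 4 of 16 other factors rose and 0 fell, where 15% of all genes rose and 11% fell. In CD8SP cells 1 of 11 partners rose and 2 of 14 other factors fell, where 2.09% of all genes rose and 2.36% fell.

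The same 4 genes were called higher in the total DN fraction, a mixture of DN stages, where 12.4% of 12509 genes were called and 7.47% were called higher. Hhex was 7.42, 7.26 and 4.33 CPM in WT and 197, 68.04 and 171 in TG replicates 1 to 3, a log2 difference of 4.46 ± 0.47 (edgeR adjusted p = 0.00410). Nfe2 was 10.7, 9.46 and 9.78 CPM in WT and 282, 107 and 239 in TG, a log2 difference of 4.34 ± 0.37 (edgeR adjusted p = 0.00123). For both genes every TG library was above every WT library, and TG replicate 2 was the lowest of the TG libraries.

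Erg was 13.8, 12.7 and 12.1 CPM in WT and 91.7, 57.3 and 76.4 in TG total DN cells, with a log2 difference of 2.50 ± 0.19 (edgeR adjusted p = 0.000654, and 0.162 in the fit of all 40 libraries). Gata1 was 1.11, 0.984 and 0.657 CPM in WT and 5.32, 3.47 and 7.84 in TG, a log2 difference of 2.54 ± 0.45 (edgeR adjusted p = 0.0151). TG and WT libraries did not overlap for any of the 4 genes, where all TG libraries were above all WT libraries in 21.1% of genes. Hhex, Nfe2 and Erg stayed called without any 1 of the 6 libraries, whereas the edgeR adjusted p of Gata1 was 0.0544 without TG replicate 3, 0.0653 without WT replicate 1 and 0.0879 without WT replicate 2.

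TG total DN replicates 1 and 3 have columns ending in N and no WT total DN library has one. In a fit with a term for that mark, which compares TG replicate 2 alone with the WT libraries, 1.58% of genes were called. Its spread came from the other 5 libraries, so that TG replicate 2 is assumed to vary as they do. The log2 difference there was 3.38 ± 0.28 for Hhex, 3.39 ± 0.16 for Nfe2 and 2.12 ± 0.17 for Erg, all 3 called under that assumption, and that of Gata1 was 1.87 ± 0.47, with an edgeR adjusted p of 0.157. TG replicate 2 also held more B-cell RNA than replicates 1 and 3 (193 against 25.7 and 115 CPM summed over 7 markers, with 116 to 255 in WT). It held more erythroid RNA too (2792 against 259 and 626 CPM summed over 10 genes). WT replicate 3 held more erythroid RNA than the other 2 WT libraries (22177 against 1808 and 1618 CPM), and was the lowest of the 3 in Gata1. The part of these fractions in the differences was not tested.

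The other 4 genes were not called in total DN cells. Gfi1b was 1.04 to 1.25 CPM in WT and 2.83, 1.23 and 4.33 in TG, with an edgeR adjusted p of 0.152, and 0.0305 without TG replicate 2. Mycn was 6.84 to 8.01 CPM in WT and 13.5, 4.09 and 10.8 in TG, so that WT lay inside the TG range (edgeR adjusted p = 0.656). Gata2 was 0.131 to 0.339 CPM in WT and 1.26, 0.130 and 0.821 in TG, and Meis1 was 0.193 to 0.407 in WT and 0.0872, 0.259 and 0.502 in TG, both below the filter. Without TG replicate 2, Gata2 passed the filter and had an edgeR adjusted p of 0.0457. TG replicate 2 was the lowest TG library in both Gfi1b and Gata2. Their p-values without it show only how much each result rests on that library.

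**Figure D2:**
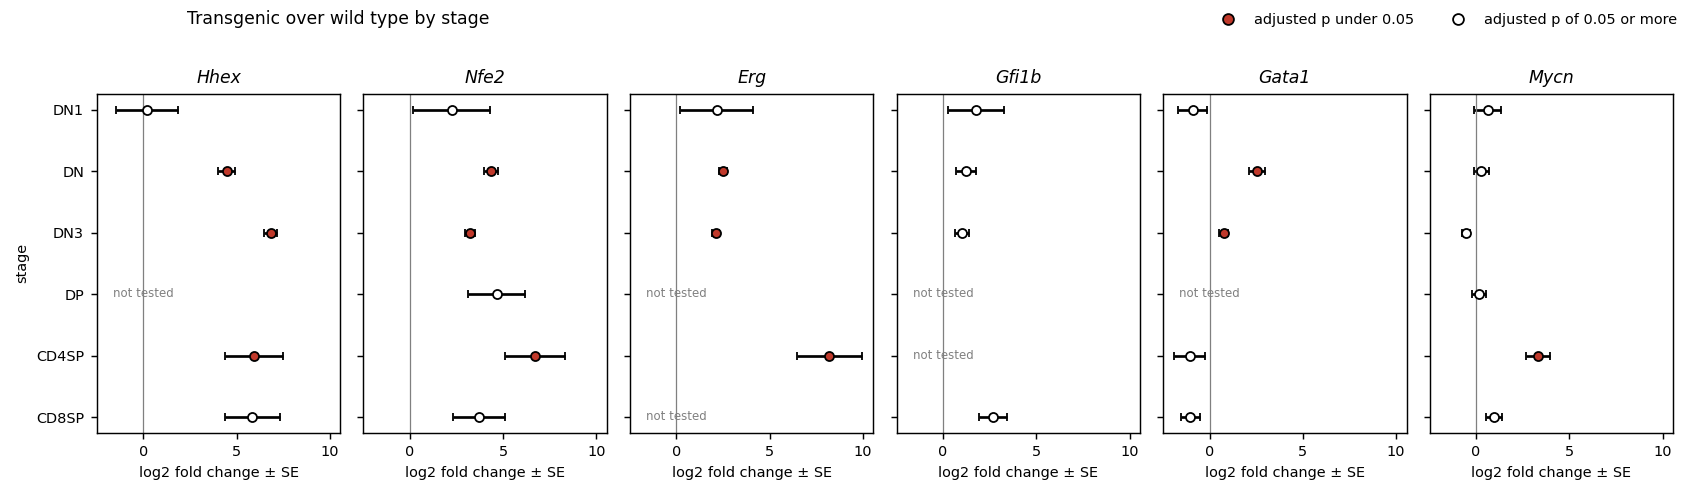
Log2 difference between TG and WT in each thymic stage for the 6 genes tested in at least 1 comparison of DN3 or DN; points are edgeR estimates, bars are ± 1 SE, filled points have an adjusted p under 0.05. Hhex, Nfe2 and Erg are filled in DN, DN3 and CD4SP, where the CD4SP bars are several times as long as the DN3 bars.

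In CD4SP cells the TG libraries disagreed with each other. Hhex was 1.75, 1.33 and 0.894 CPM in WT and 171, 0.897 and 67.2 in TG replicates 1 to 3. TG replicate 2 lay within the WT range while replicates 1 and 3 were far above it. In Nfe2 replicate 2 was just above the WT range, at 0.818 to 1.02 CPM in WT and 218, 1.23 and 72.5 in TG, and Erg showed the same order, at 0.0426 to 0.195 in WT and 66.3, 0.523 and 30.03 in TG.

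Of the 8 genes, 5 were tested in CD4SP cells and 4 were called higher, where 25.9% of 12073 genes were called and 15% were called higher. The log2 difference was 5.92 ± 1.56 for Hhex (edgeR adjusted p = 0.0339), 6.73 ± 1.61 for Nfe2 (0.0262) and 8.20 ± 1.76 for Erg (0.0204). These calls rested on few libraries. The edgeR adjusted p of Hhex was 0.0767 without TG replicate 1, 0.0524 without TG replicate 3, and 0.132, 0.144 and 0.116 without WT replicates 1, 2 and 3. For Nfe2 it was 0.0559 without TG replicate 1 and 0.122, 0.127 and 0.0926 without WT 1, 2 and 3, and for Erg 0.104, 0.100 and 0.0765 without WT 1, 2 and 3, all by the same edgeR test.

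TG CD4SP replicates 1 and 3 are the libraries whose columns end in N. With a term for that mark, which leaves TG replicate 2 alone against WT and takes its spread from the other 5 libraries, 18.9% of genes were called and the log2 difference was -0.56 ± 0.66 for Hhex, 0.43 ± 0.64 for Nfe2 and 2.25 ± 0.81 for Erg. None of these 3 was called, with edgeR adjusted p-values of 0.574, 0.660 and 0.0977. The surface genes of the sort also differed between these libraries. Cd4 was 190.1, 2167 and 1267 CPM in TG replicates 1 to 3 against 1379 to 1897 in WT, and Cd8a, which CD4SP cells should lack, was 92.1, 3093 and 804 against 43.5 to 148. Il2ra was 347, 20.6 and 202 CPM in the TG libraries against 28.8 to 47.3 in WT. TG replicate 1 was thus low in both coreceptor genes and high in Il2ra, and TG replicate 2 had Cd4 and Cd8a within the range of the WT DP libraries (1913 to 2850.3 CPM of Cd4 and 2877 to 3733 of Cd8a). The part of the makeup of these fractions in the differences was not tested.

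Mycn and Gata1 behaved differently in CD4SP cells. Mycn was 0.380, 0.429 and 1.23 CPM in WT and 10.4, 4.11 and 5.87 in TG, with every TG library above every WT library, as in 23.1% of genes. Its log2 difference was 3.33 ± 0.65 (edgeR adjusted p = 0.0158) and 2.60 ± 0.68 with the term for the column mark (0.0425). Its edgeR adjusted p was 0.0885 without WT replicate 1 and 0.0911 without WT replicate 2. Mycn was 3.85 to 4.26 CPM in WT DP libraries, and the level in TG CD4SP replicate 2, which had Cd4 and Cd8a in the WT DP range, lay within that range too.

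Gata1 had its highest WT level in CD4SP cells, at 6.35, 5.92 and 4.81 CPM, and was 4.70, 0.299 and 3.02 in TG. All TG libraries were below all WT libraries, as in 26.7% of genes, but the log2 difference of -1.07 ± 0.82 was not called (edgeR adjusted p = 0.358). With the term for the column mark, where TG replicate 2 is the single TG library and is assumed to vary like the others, it was -4.22 ± 0.62 (edgeR adjusted p = 0.00901). Among the WT CD4SP libraries the 11 megakaryocyte genes summed to 348 to 411 CPM, of which Itgb3 made 346 to 409, and Pf4 was at 0 to 0.0851. Gfi1b was 0 to 0.0851 CPM in WT and 3.06, 0.150 and 1.99 in TG and was below the filter. Without TG replicate 2 it was tested and had an edgeR adjusted p of 0.00602. As replicate 2 was the lowest TG library in Gfi1b, this value shows only how much the result rests on that library.

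In DP cells no gene of the 11649 tested was called by edgeR's quasi-likelihood test (0%). At an unadjusted p under 0.05 there were 2450 genes (21%), and 605 genes were called by DESeq2. Hhex was 0.331, 0.199 and 0.0395 CPM in WT and 0.702 and 24.0 in TG replicates 1 and 2, with 0 in the library labelled transgenic DP replicate 3. Nfe2 was 0.316 to 0.851 CPM in WT and 1.66, 38.5 and 0.574 in those 3 libraries, and Erg was 0 to 0.0794 and 0.443, 8.89 and 0.251. TG replicates 1 and 2 were above all WT libraries for these 3 genes, and the library labelled replicate 3 was above them for Erg alone. Replicate 2, whose column ends in N, was by far the highest. Of the 8, only Nfe2 and Mycn passed the filter, with edgeR adjusted p-values of 0.213 and 0.813. Without the library labelled transgenic DP replicate 3, 7.6% of 11919 genes were called, 5 of the 8 were tested and 3 were called higher. The log2 differences were then 5.23 ± 1.19 for Nfe2, 6.62 ± 1.43 for Erg and 2.68 ± 0.61 for Gata1, with edgeR adjusted p-values of 0.0476, 0.0443 and 0.0476. Hhex, at 6.01 ± 1.41, had an edgeR adjusted p of 0.0509. The library left out, set aside for its Lmo2 level, was also the lowest TG DP library in Hhex, Nfe2, Erg and Gata1. Leaving it out thus raises these differences by itself.

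In CD8SP cells Hhex was 0.200, 0.189 and 0.0880 CPM in WT and 1.14, 26.3 and 1.14 in TG replicates 1 to 3, of which replicate 2 has a column ending in N. Every TG library was above every WT library, as in 11.8% of genes, but the TG libraries were far apart and the log2 difference of 5.85 ± 1.49 was not called (edgeR adjusted p = 0.0771). No gene of the 8 was called where 4.45% of 11697 genes were. Nfe2 was 0.453 to 1.10 CPM in WT and 0.733, 30.2 and 1.28 in TG (edgeR adjusted p = 0.198). Gfi1b was 0.200 to 0.264 CPM in WT and 1.10, 2.92 and 0.475 in TG, without overlap (edgeR adjusted p = 0.0985). Erg was 0 to 0.0755 CPM in WT, 0.917, 10.2 and 0.143 in TG, and below the filter. TG replicate 3 had Cd4 at 1408 CPM, against 154 and 164 in the other 2, and WT replicate 3 had 855 against 95.4 and 31.3. Without TG replicate 3, and with WT replicate 3 kept, 724 of 11979 genes were called. The edgeR adjusted p was then 0.0470 for Hhex, 0.0383 for Erg and 0.0398 for Gfi1b. TG replicate 3 was also the lowest TG library in Erg and Gfi1b, and Hhex was left with TG values of 1.14 and 26.3 CPM. These p-values thus show only how much each result rests on TG replicate 3.

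Across the 9 libraries labelled TG of DP, CD4SP and CD8SP cells, the high values of Hhex, Nfe2 and Erg fell in the same 4 libraries, those with columns ending in N. One of the other 5 is the library labelled transgenic DP replicate 3, so values are also given over the 4 that remain without it. Hhex was 24.0 to 171 CPM in the marked libraries and 0 to 1.14 in the other 5, or 0.702 to 1.14 in the 4. Nfe2 was 30.2 to 218 against 0.574 to 1.66, or 0.733 to 1.66, and Erg was 8.89 to 66.3 against 0.143 to 0.917, with or without that library. All 4 libraries were above all 5 others for 753 of 14845 genes (5.07%) and below them for 305 (2.05%). They were above by 10-fold or more in 52 genes (0.35%), among them Hhex and Nfe2, while Erg fell just short at 9.69-fold. Without the library labelled transgenic DP replicate 3 these counts were 820 (5.52%), 353 (2.38%) and 59 (0.397%) of the 14845 genes. Lyl1 separated the libraries too, at 32.8 to 266 CPM against 1.51 to 3.77, and so did Cpa3, at 175 to 1881 against 0.0718 to 3.56, and Kit, at 36.1 to 126 against 4.56 to 20.4. Il2ra, normally high in DN cells and low later, was 55.8 to 347 CPM against 10.03 to 38.3. Lmo2 itself overlapped between the marked and unmarked libraries, at 23.3 to 70.0 CPM against 0.395 to 78.8. Without the library labelled transgenic DP replicate 3 the unmarked libraries were at 43.2 to 78.8. Within each stage, that library aside, the marked libraries were lower in Lmo2. It was 23.3 and 40.2 CPM against 75.3 in CD4SP, 35.6 against 43.2 and 71.5 in CD8SP, and 70.0 against 78.8 in DP. The 2 WT libraries with this column mark, DP replicate 1 and CD8SP replicate 1, had 0.331 and 0.200 CPM of Hhex. In TG total DN the marked libraries were also higher in Hhex, at 197 and 171 CPM against 68.04. In TG spleen the marked libraries were lower in Hhex. They had 30.3 and 18.6 CPM against 38.9 in CD4+ cells, and 17.8 and 11.96 against 77.9 in CD8+ cells. Nfe2 and Erg were likewise higher in the marked total DN libraries and lower in the marked spleen libraries. What the mark stands for, and its part in the result, was not tested.

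**Figure D3:**
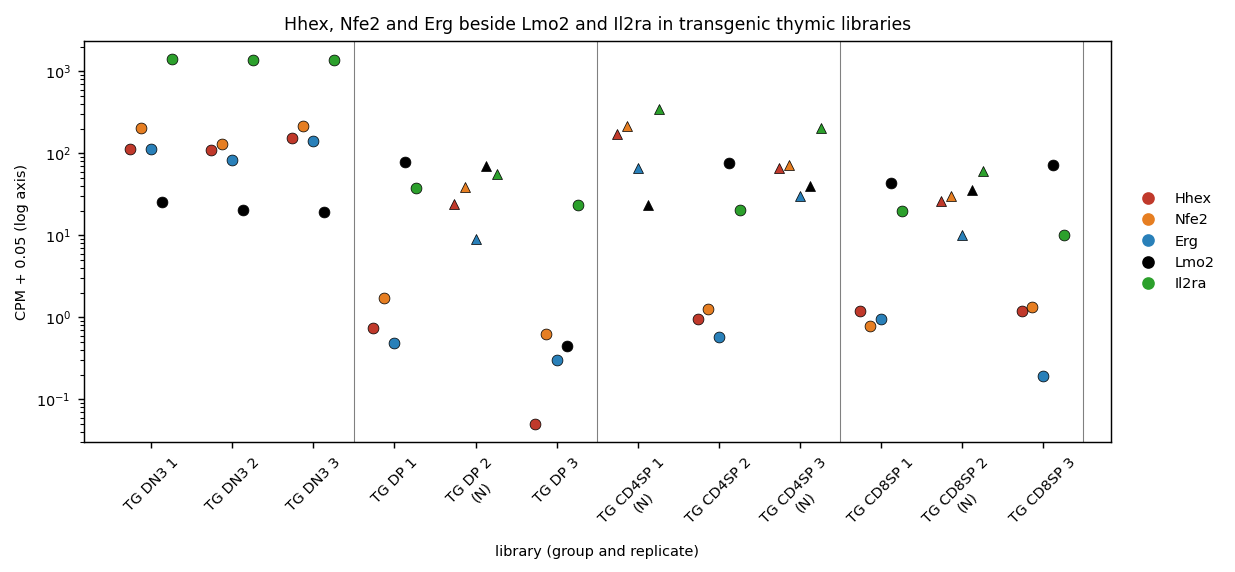
Hhex, Nfe2, Erg, Lmo2 and Il2ra in each TG thymic library from DN3 to CD8SP, as CPM + 0.05 on a log axis; triangles are libraries whose columns end in N. Hhex, Nfe2 and Erg are above 8 CPM in the 4 triangle libraries and below 2 CPM in the 5 other DP, CD4SP and CD8SP libraries, while Lmo2 is above 19 CPM in all but the library labelled transgenic DP replicate 3.

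The difference between stages was tested directly. For the change in the TG effect between DN3 and DP cells, 0 of the 6 members tested were called where 10.2% of 12451 genes were, and the smallest edgeR adjusted p was 0.179, for Gata1. Without the library labelled transgenic DP replicate 3, where 20.5% were called, Gata1 was called (log2 difference of effects -1.96 ± 0.57, edgeR adjusted p = 0.0331, the smaller effect being in DN3). That library was the lowest TG DP library in Gata1, so leaving it out raises the DP effect by itself. The Hhex effect was larger in DN3 than in DP by 1.37 ± 2.63 with all 12 libraries (edgeR adjusted p = 0.764) and by 0.77 ± 2.08 without the library labelled replicate 3 (edgeR adjusted p = 0.826). When each library was left out in turn, it was called without TG DP replicate 2 (5.89 ± 1.39, edgeR adjusted p = 0.0287). That library has the highest Hhex of the DP libraries and the arm left holds the doubtful one, so this shows only how much the value rests on replicate 2.

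Between DN3 and CD8SP cells 0 of the 6 members tested were called where 6.98% of 12424 genes were. Mycn came closest, at -1.50 ± 0.42 (edgeR adjusted p = 0.0545), being lower in TG than in WT in DN3 and higher in CD8SP. It was called without TG CD8SP replicate 1 (0.0434) or replicate 2 (0.0457), each lower in Mycn than replicate 3. Without TG CD8SP replicate 2, the library with the highest Hhex, Nfe2 and Gata1 of its group, the effect was also larger in DN3 for Hhex, by 3.99 ± 0.76, for Nfe2, by 2.89 ± 0.54, and for Gata1, by 2.17 ± 0.54, with edgeR adjusted p-values of 0.0109, 0.00982 and 0.0380. Leaving out the library highest in these genes lowers their CD8SP effect by itself. All these p-values thus show only how much the results rest on the library left out. With all libraries included, the effect on Hhex was not shown to differ between DN3 and either later stage.

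In DN1 cells, where some of these genes are normally on, Hhex was 39.8 CPM in the WT library and 63.6, 39.3 and 34.6 in TG replicates 1 to 3. The WT value lay inside the TG range. Nfe2 was 3.86 CPM in WT and 40.9, 9.11 and 4.55 in TG, and Erg was 1.33 and 11.8, 4.37 and 1.57, with TG replicate 1 highest for both. No gene was called of 14845 (0%) by edgeR. At an unadjusted p under 0.05 there were 157 genes (1.06%), and 3 genes were called by DESeq2. There is 1 WT library, whose spread was taken from the other groups, and the log2 difference of Hhex was 0.20 ± 1.64, that of Nfe2 2.24 ± 2.06 and that of Erg 2.16 ± 1.94. Meis1 was 0.964 CPM in WT and 0.962 to 1.14 in TG DN1.

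From WT DN3 to WT DN1, 35.1% of genes were called in the fit of all 40 libraries, and 3 of the 8 were. Hhex was higher in DN1 by 5.16 ± 1.58 (edgeR adjusted p = 0.0119) and Mycn was lower, at 2.65 CPM in DN1 (log2 difference -2.41 ± 0.80, edgeR adjusted p = 0.0197). Gata2 had 10 reads in WT DN1 and 0 in the 3 WT DN3 libraries, at least 11.2-fold higher against a limit of 3 reads for the DN3 group (edgeR adjusted p = 0.0327). Without WT DN3 replicate 1, 2 or 3 the edgeR adjusted p of Gata2 was 0.0720, 0.0651 and 0.0704. Nfe2 and Erg were 3.86 and 1.33 CPM in the DN1 library against 13.9 to 23.5 and 24.3 to 28.7 in DN3, and were not called (edgeR adjusted p = 0.398 and 0.124).

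In TG mice Hhex was lower in DN1 than in DN3. From TG DN3 to TG DN1, 61.2% of 12936 genes were called, 33.2% higher and 28% lower in DN1, and 7 of the 8 genes were. Lower in DN1 were Hhex, Nfe2, Erg, Gata1 and Mycn (log2 differences -1.40 ± 0.24, -3.27 ± 0.80, -4.20 ± 0.67, -1.52 ± 0.30 and -1.18 ± 0.36). The edgeR adjusted p-values were 0.00127, 0.0114, 0.00185, 0.00277 and 0.0204. Higher in DN1 were Meis1, with 84 reads against 0 and at least 31.0-fold higher for a limit of 3 reads in the DN3 group (edgeR adjusted p = 0.000240), and Gata2, at 0.533 to 1.34 against 0.0342 to 0.345 CPM (edgeR adjusted p = 0.0171). The Mycn call was lost without TG DN1 replicate 2 (0.0690) or 3 (0.0621) or TG DN3 replicate 1 (0.0613). The Gata2 call was lost without TG DN1 replicate 2 (0.0775) or TG DN3 replicate 3 (0.0593). Hhex, with an edgeR adjusted p of 0.320, and Gata2, with 0.127, were not called in the fit of all 40 libraries.

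The DN1 libraries also held RNA of other cells. The 7 B-cell markers summed to 1411 CPM in the WT DN1 library and 588 to 916 in TG DN1, against 9.49 to 35.1 in the 6 DN3 libraries. The 9 myeloid markers summed to 454 CPM in WT and 274 to 535 in TG DN1, against 2.51 to 11.2 in DN3. HHEX is known in B cells and MEIS1 and GATA2 in myeloid progenitors, and the part of these cells in the DN1 levels was not tested. Cd4 was 548 CPM in WT and 423 to 689 in TG DN1, although DN cells by name lack it.

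**Figure D4:**
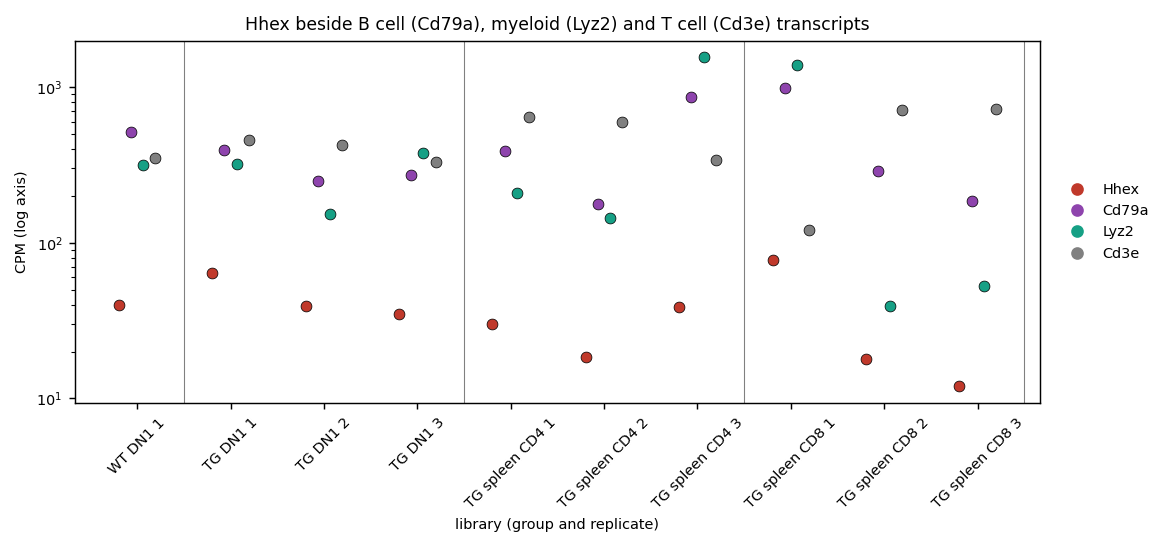
Hhex beside transcripts of B cells (Cd79a), myeloid cells (Lyz2) and T cells (Cd3e) in each DN1 and spleen library, as CPM on a log axis. Hhex is highest in TG spleen CD8 replicate 1, which has the highest Cd79a and the lowest Cd3e of the 10 libraries.

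In TG spleen Hhex was 30.3, 18.6 and 38.9 CPM in CD4+ and 77.9, 17.8 and 11.96 in CD8+ T cells, replicates 1 to 3, against 171, 0.897 and 67.2 in TG CD4SP and 1.14, 26.3 and 1.14 in TG CD8SP thymocytes. CD8+ replicate 1 stood apart. Its Cd8a was 435 CPM against 1518 and 1507 in the other 2, and its Hhex was the highest of the spleen libraries. Its 7 B-cell markers summed to 3639 CPM against 753 and 496, and its 9 myeloid markers to 2921 against 91.4 and 132. In all 6 spleen libraries the B-cell markers summed to 456 to 3639 CPM, above the 9.13 to 55.9 of TG SP thymocytes. The part of B cells and myeloid cells in Hhex was not tested. Hhex was not called against the thymic SP groups (edgeR adjusted p = 0.436 for CD4 and 0.319 for CD8). Leaving out 1 thymic library changed that in each case. Without TG CD4SP replicate 2 Hhex was lower in spleen CD4+ cells (-2.09 ± 0.48, edgeR adjusted p = 0.0333), and without TG CD8SP replicate 2 it was higher in spleen CD8+ cells (5.02 ± 1.08, edgeR adjusted p = 0.0266). The library left out had the lowest Hhex of its group in CD4SP and the highest in CD8SP. These p-values thus show only how much each result rests on that library.

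Nfe2 and Erg were low in most spleen libraries. Nfe2 was 3.36, 2.87 and 11.9 CPM in CD4+ and 18.7, 0.511 and 1.84 in CD8+ cells, and Erg was 0.0480, 0.156 and 5.81 and 0.501, 0.0639 and 0.211. Both were highest among CD4+ libraries in replicate 3, where the 10 erythroid genes summed to 59638 CPM against 2553 and 1258. The 9 myeloid markers summed to 2934 CPM there, against 508 and 380 in replicates 1 and 2. Gata2 was 1.20, 0.573 and 10.6 CPM in CD4+ replicates 1 to 3 and Gata1 was 5.33, 3.65 and 8.01, also highest in replicate 3. The platelet gene Pf4 was 6.73, 2.81 and 12.1 CPM in these libraries. The part of erythroid, platelet and myeloid RNA in the Nfe2, Erg and GATA levels was not tested.

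Meis1 and Mycn differed between spleen and thymus. Of 8 genes tested in CD4 cells, 2 were called, close to the share of all genes (24.5% of 12578). Meis1 was 0.137, 0.0748 and 0.114 CPM in thymic CD4SP and 2.31, 1.82 and 1.60 in splenic CD4+ cells, a log2 difference of 4.05 ± 0.62 (edgeR adjusted p = 0.0109). The myeloid markers summed to 58.0, 28.1 and 96.8 CPM in these thymic libraries and 508, 380 and 2934 in the splenic ones. The B-cell markers summed to 25.8, 21.5 and 55.9 CPM and to 940, 456 and 1843. The part of such cells in Meis1 was not tested. Mycn was 10.4, 4.11 and 5.87 CPM in thymic and 0.0961, 0.0521 and 0.401 in splenic cells, with a log2 difference of -5.20 ± 0.89 (edgeR adjusted p = 0.0135). Both calls were lost without splenic CD4+ replicate 1 (0.0557 for Meis1 and 0.0610 for Mycn) or 2 (0.0505 for both), by the same edgeR test.

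In CD8 cells 6 of the 8 genes were tested and 1 was called where 37.3% of 12185 genes were. Mycn had 1 read in the 3 splenic CD8+ libraries together and was 2.64 to 4.47 CPM in thymic CD8SP cells (edgeR adjusted p = 0.00233, and 0.00328 without splenic CD8+ replicate 1, where 43.4% of genes were called). Meis1 was 2.71, 0.447 and 0.105 CPM in splenic CD8+ cells, highest in replicate 1, and at 0 to 0.133 in thymic CD8SP cells, below the filter. That replicate also had the highest B-cell and myeloid sums of the splenic CD8+ libraries, and their part in Meis1 was not tested.

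Ordered by mean CPM over the 14 groups, Hhex was highest in TG total DN at 145 ± 68.3 (SD, n = 3) and TG DN3 at 125 ± 23.9, and lowest in WT DP at 0.190 ± 0.146 and WT CD8SP at 0.159 ± 0.0618. Neighbours in that order overlapped, except that WT total DN (6.34 ± 1.74) was above WT CD4SP (1.32 ± 0.428), and WT DN3 (1.10 ± 0.608) above WT DP. Among WT groups alone the order was DN1, DN, CD4SP, DN3, DP and CD8SP. Erg was highest in TG DN3 at 113 ± 29.7 CPM, and among WT groups in DN3 at 26.1 ± 2.29 and total DN at 12.9 ± 0.850, which did not overlap. Mycn was highest in WT DN3 at 14.1 ± 1.15 CPM, without overlap with the next group, TG DN3 at 9.59 ± 2.53. The highest Gata1 groups overlapped, with WT CD4SP at 5.69 ± 0.796, TG splenic CD4+ at 5.66 ± 2.20 and TG total DN at 5.54 ± 2.20 CPM. Meis1 was highest in TG splenic CD4+ cells at 1.91 ± 0.359 CPM, overlapping with TG splenic CD8+ cells. The Gata2 mean was also highest there, at 4.11 ± 5.60 CPM, but rested on replicate 3 (10.6), as replicates 1 and 2 (1.20 and 0.573) lay within the TG DN1 range (0.533 to 1.34).

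The genes whose pattern over the 40 libraries was most like that of Hhex were found by Pearson's correlation of log2(CPM + 0.5), as a description over libraries that share groups. They were Lyl1 (r = 0.97), Arhgap6 (0.94), Gem (0.93), Ckap4 (0.92), Pdlim7 (0.92), Naip5 (0.91), Gpr34 (0.91), Thbd (0.90), Plscr1 (0.90) and Rbpms (0.90). With means of the 14 groups in place of libraries, 6 of these 10 were again among the 10 most like, and with a pseudocount of 1 in place of 0.5, 9 were. Lyl1 came first each time. Nfe2 was most like Micall2 (0.95), Inka1 (0.95) and Erg (0.94), and Erg was most like Muc13 (0.98), Cd59a (0.95) and Scin (0.95). Gfi1b was most like Inka1 (0.91), Erg (0.90) and Mgat4b (0.89). Among the 8 genes r was 0.81 between Hhex and Nfe2, 0.65 between Hhex and Erg and 0.11 between Hhex and Mycn. For the others the most like were Ifitm1, Adgrg6 and Ifitm6 for Meis1 (0.95 each), Tuba4a (0.85), 1110032F04Rik (0.83) and Rsu1 (0.81) for Gata1, Bmp6, Plvap and Cela1 for Gata2 (0.87 each), and Evpl (0.93), Adgrg1 (0.92) and Notch3 (0.91) for Mycn.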

How the data were processed

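RNA was measured in 40 libraries of sorted mouse T-cell fractions in 14 groups, mapped to groups by the labels. The deposited table holds read counts and FPKM values per gene, made by the authors with HISAT and mm10 or mm9 among the tools and builds named, per the submitters' processing notes, which give no versions or order. The counting program was not given in the sources used here. A further 4 columns, 2 of them counts, were not analysed here.

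The test was edgeR's (version 4.0.16, R 4.3.3), run on the deposited counts (quasi-likelihood test, robust, TMM, filterByExpr with minimum count 10 and minimum total 15, Benjamini-Hochberg threshold 0.05) in the libraries of each comparison. Comparisons with the 1 WT DN1 library used 1 fit of all 40. The test was checked on simulated data. SE is the log2 difference divided by the square root of F. Upper limits take 3 reads for a group at 0, and the fold bounds from them take the reads of the other group as exact. FPKM was used only for levels between genes. DESeq2 1.42.0, RLE size factors, no filter, 1 fit of all libraries, the replicate block, the column mark and leaving out each library were alternatives. The anti-LMO2 peak lists were not analysed here, since no annotation of their build (mm9) was at hand. The members and gene lists were chosen with earlier results of these data known. Named were the 8 members, the genes most correlated with them, Lmo2, genes of the lists with the smallest p in DN3 (up to 4 a list), and marker genes that bear on a result. Tal1, Cd4, Cd8a, Cd3e, Cd79a, Lyz2, Il2ra, Hba-a1 and Pf4 were chosen after their values were seen.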

Additional observations from a re-analysis of the deposited data

How the results depend on the processing

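DESeq2 called 2632 genes in DN (1547 by edgeR), 605 in DP (0), 1248 in CD8SP (520), 3 in DN1 (0), 2295 in the DN3 and DP interaction (1266) and 1529 in that of DN3 and CD8SP (867). One fit of all 40 libraries called 2644 in DN3 (5497), 695 in DP, 5723 in CD4SP (3132), 6867 in splenic against thymic CD4 (3085), 7722 in CD8 (4546), and 553 and 418 in the interactions. With the term for the column mark 198 were called in DN, 1 in DN1 and 1991 in the DN3 and DP interaction. Leaving out 1 library gave 3802 to 6185 genes in DN3, 179 to 3146 in DN, 0 to 906 in DP, 38 to 4329 in CD4SP, 9 to 724 in CD8SP, 461 to 3227 and 2626 to 5354 in spleen against thymus (CD4 and CD8), and 352 to 2598 and 433 to 1342 in the interactions with DP and CD8SP.

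The main fits were unpaired. In no comparison did all 3 same-numbered pairs correlate above 0.1, a cut-off that cannot show the samples to be unpaired. The pairs of replicates 1 to 3 correlated at 0.314, 0.236 and 0.0808 in TG DN1 against DN3. The highest value was 0.592, for replicate 3 in CD8SP cells. The replicate block called 5176 genes in DN3, 1494 in DN, 0 in DP, 1362 in CD4SP, 798 in CD8SP, 8247 in TG DN1 against DN3, 2009 and 3242 in spleen against thymus, and 1549 and 1071 in the interactions. With the block the calls of Gata1 in DN3 (adjusted p = 0.0659) and of Hhex, Nfe2 and Erg in CD4SP (0.150, 0.103 and 0.0694) were lost, while Mycn in DN3 (0.0350), Hhex in CD8SP (0.0498), Erg in both interactions (0.00587 and 0.00161) and Mycn in that with CD8SP (0.0335) were gained, all by edgeR, and no other call among the 8 genes changed. In the fits without the block, the difference of effects for Erg was -3.95 ± 2.10 in the interaction with DP and -4.64 ± 2.21 in that with CD8SP. The smaller effect was in DN3 in both, and neither was called (edgeR adjusted p = 0.228 and 0.237). DESeq2 additionally called Gfi1b higher (0.0429) and Mycn lower (0.0407) in DN3.

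For the 31 called values of the 8 genes and Lmo2, 285 refits kept direction and call, 53 lost the call, and 1 changed sign, Hhex in CD4SP at -0.56 with the column mark; the cause was not tested. Without the filter on low counts the edgeR adjusted p in CD4SP was 0.0872 for Hhex, 0.0698 for Nfe2 and 0.0531 for Erg. Peaks near the genes were not run, for want of an annotation of their build. Depth limits Gata2 and Meis1 most, with at most 14 reads in a DN3 group. The split of the libraries by column mark without the library labelled transgenic DP replicate 3 was chosen after seeing the data.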
